A study of Mus musculus with 6 samples.

Results

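Muscle cells remove proteins by 2 routes, and 10 genes of these routes were followed here in the mouse ventricle: Fbxo32, Trim63, Foxo1, Foxo3, Map1lc3a, Map1lc3b, Sqstm1, Gabarapl1, Bnip3 and Ctsl. They were taken by name from the per-mouse table of expression values, and each of the 10 names matched 1 row of 24239. All 10 passed the filter on low values (a mean of at least 1 FPKM, a read level scaled to transcript length and library size) and were tested with 11994 genes in all. RNA came from ventricles of male C57BL/6 mice aged 8 to 10 weeks. In the Pacing group, 3 mice were paced for 8 days through a bipolar catheter placed in the esophagus beside the atria, for 45 min a day at a cycle length of 80 ms with 3 min at 120 ms before and after. Pacing ran over 5 days and, after 2 days without it, over 3 more. The Sham group held 3 mice with a sham intervention and no pacing, and no mouse carried a labelled allele or drug. The comparison asks whether repeated fast pacing of the atria leaves the transcripts for protein breakdown in the ventricle at another level than in sham mice.

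In the first route, ubiquitin ligases tag proteins for the proteasome. Fbxo32 (atrogin-1, also called MAFbx) and Trim63 (MuRF1) encode the 2 ligases best known from muscle wasting, and the transcription factors Foxo1 and Foxo3, which insulin and Akt signalling keep out of the nucleus, can switch both on. In the second route, autophagy, proteins of the LC3 and GABARAP family are coupled to lipid of a growing membrane. Receptors such as p62 (Sqstm1) and BNIP3 tie cargo to that membrane, and proteases such as cathepsin L (Ctsl) digest it in the lysosome.

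Between paced and sham ventricles, no member passed the adjusted threshold. Of the 10 members, 0 had a limma adjusted p under 0.05 and 1 had an unadjusted p under 0.05. Among all genes tested, 0.0% passed the limma adjusted threshold (lowest adjusted p = 0.107) and 8.85% had an unadjusted p under 0.05, 620 of them higher and 442 lower. That split was 968 to 148 with the sum of FPKM made equal in all mice, 514 to 609 with values centred on medians and 537 to 581 with quantile normalization. The number of genes that passed as higher came to 106 with Sham 1 left out and to 7 with Pacing 1 left out, and no member was among them. Mean log2 fold changes of pacing over sham, on the log2(FPKM + 1) scale, lay between -0.18 for Trim63 and 0.24 for Gabarapl1. Of the members 8 had a positive value, where 48.2% of all genes did, and the median was 0.03 over the members and -0.007 over all genes. The count of 8 was 4 without Pacing 1 and 3 without Sham 1. The 95% interval of each member lay within 1 log2 unit of 0, and for 9 of 10 it lay within 0.5, with Foxo3 as the exception. The authors' deposited table called none of the members and 1.38% of its rows.

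The 3 paced mice and the 3 sham mice separated for 2 members, Gabarapl1 and Trim63, and overlapped for the other 8. Every paced value lay above every sham value in 1 member, against 6.24% of all genes, and below in 1 member, against 6.97%. Those shares are close to the members' own. The upstream sequence of these 2 genes is shown because they alone separate the groups, and that of Bnip3 because it carries a motif linked to lysosomal genes. The RefSeq promoter table (build GRCm38.p6, 250 bases before to 50 after the annotated start) held 8 of the 10 members, and Fbxo32 and Map1lc3a were not among them. These motifs were searched on both strands: GTAAACA, a FoxO binding element; CACGTG, the core of the E-box that the lysosomal regulator TFEB binds; and TATAAA, the TATA box. Capitals mark matches, and the 3 motifs did not overlap in these windows.

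Trim63, chr4:134314870-134315169, plus strand: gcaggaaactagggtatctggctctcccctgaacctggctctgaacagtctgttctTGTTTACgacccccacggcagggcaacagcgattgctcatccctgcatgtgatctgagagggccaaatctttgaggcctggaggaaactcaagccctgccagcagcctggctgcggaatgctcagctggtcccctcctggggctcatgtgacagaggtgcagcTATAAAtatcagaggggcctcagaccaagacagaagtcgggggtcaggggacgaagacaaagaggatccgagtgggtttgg
Gabarapl1, chr6:129532942-129533241, plus strand: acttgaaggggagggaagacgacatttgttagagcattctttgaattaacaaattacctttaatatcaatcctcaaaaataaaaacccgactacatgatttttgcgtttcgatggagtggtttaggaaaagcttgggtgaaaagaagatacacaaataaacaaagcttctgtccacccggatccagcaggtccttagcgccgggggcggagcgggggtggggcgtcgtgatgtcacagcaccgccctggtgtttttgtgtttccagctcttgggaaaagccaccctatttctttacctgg
Bnip3, chr7:138909457-138909756, minus strand: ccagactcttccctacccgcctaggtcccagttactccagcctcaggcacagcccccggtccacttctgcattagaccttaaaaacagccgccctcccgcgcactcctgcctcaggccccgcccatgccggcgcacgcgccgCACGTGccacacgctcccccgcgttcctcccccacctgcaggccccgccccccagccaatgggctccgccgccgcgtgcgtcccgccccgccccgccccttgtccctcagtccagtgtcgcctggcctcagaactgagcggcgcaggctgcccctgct

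Trim63 was the 1 member of 8 whose window held the FoxO element, which reads TGTTTAC from base -194, and it also held a TATA box from base -31. The FoxO element is in 3.65% of 32851 promoter windows of the same length. The TATA box is in 13.6% of them and in 2 of the 8 members, Trim63 and, from base -1, Sqstm1. The E-box core was in 2 of 8 members, Bnip3 from base -108 and Ctsl from base -236, and in 7.15% of all windows. The Gabarapl1 window held none of the 3 motifs. That window belongs to a RefSeq start inside the gene as the deposited table draws it (chromosome 6, 129532184 to 129542331). These are matches of letters within 300 bases and were not tested for binding.

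Fbxo32 had nearly equal means in both groups. Its values were 28.00, 24.65 and 21.99 FPKM in pacing 1, 2 and 3, against 20.08, 29.02 and 24.30 FPKM in sham 1, 2 and 3. The highest and the lowest mouse were both sham, so that the paced values lay inside the sham range. The means were 24.9 ± 3.02 FPKM in paced and 24.5 ± 4.48 FPKM in sham ventricles (SD, n = 3 each), with a log2 fold change of 0.03 (SE 0.14, 95% interval -0.29 to 0.35, limma adjusted p = 0.974). The gene lies on chromosome 15 from 58175879 to 58214892 on the minus strand (mm10) and has 9 exons in its 1 annotated transcript. At the depth of these libraries its level stands for 1039 to 1559 fragments per mouse.

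Trim63 had a lower mean in paced ventricles, by a small amount. It stood at 129.9, 109.9 and 128.5 FPKM in pacing 1, 2 and 3, against 130.4, 149.3 and 136.2 FPKM in sham 1, 2 and 3. The groups did not overlap, but pacing 1 and sham 1 were almost equal and pacing 2 lay well below the rest. The mean was 122.8 ± 11.1 FPKM in paced and 138.6 ± 9.68 FPKM in sham ventricles (SD, n = 3 each), a log2 fold change of -0.18 (SE 0.09, 95% interval -0.39 to 0.04, limma adjusted p = 0.65). Without Pacing 2 the fold change was -0.099 (limma adjusted p = 0.874), and a two-sided exact permutation test gave 0.1, the smallest p that 3 against 3 allows. With equal sums of FPKM it was likewise -0.099, with the level of fat markers as a covariate -0.098, and without Pacing 2 and Pacing 3 -0.092. The gene lies on chromosome 4 from 134315120 to 134329629.

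The 2 other MuRF genes, named after their values were seen, overlapped between the groups. Trim55 (MuRF2) averaged 36.9 ± 2.64 FPKM in paced and 40.2 ± 3.75 FPKM in sham ventricles (SD, n = 3 each), and Trim54 (MuRF3) averaged 163.8 ± 17.5 and 150.6 ± 33.3 FPKM. Their log2 fold changes were -0.12 and 0.14 (limma adjusted p = 0.763 and 0.841). By FPKM, Trim54 and Trim63 overlapped over the mice and both lay above Trim55, which lay above Fbxo32 in every mouse.

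**Figure D1:**
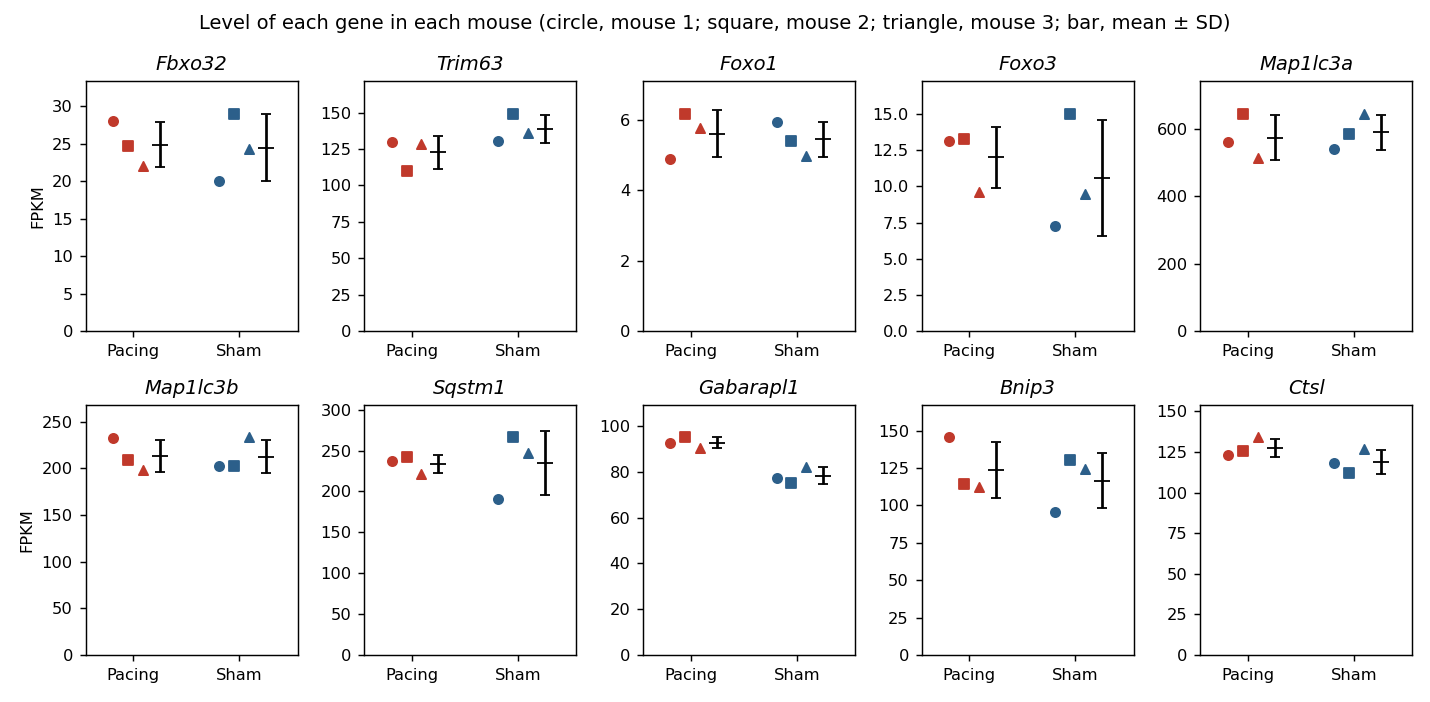
FPKM of each gene (vertical axes from 0) in each mouse, Pacing in red and Sham in blue, with the mean and SD beside the points of each group. Gabarapl1 and Trim63 separate the groups, and for Trim63 the step is the small one between 129.9 FPKM in pacing 1 and 130.4 FPKM in sham 1.

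The FoxO factors themselves were expressed at low to moderate levels and overlapped between the groups. Foxo1 stood at 4.89, 6.18 and 5.77 FPKM in pacing 1, 2 and 3, against 5.95, 5.41 and 4.98 FPKM in sham 1, 2 and 3. The mean was 5.61 ± 0.658 FPKM in paced and 5.45 ± 0.486 FPKM in sham ventricles (SD, n = 3 each), with a log2 fold change of 0.04 (SE 0.11, limma adjusted p = 0.957). It is the member with the lowest level. With the GENCODE transcript length of 8665 bases its values stand for 265 to 437 fragments per mouse. The counting error is then 6.14% of the level in the lowest mouse. The gene ends at 52350109 in the authors' gene model and at 52353221 in GENCODE, so the fragments may be fewer and the error larger.

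Foxo3 varied more between mice than any other member. It stood at 13.2, 13.3 and 9.61 FPKM in pacing 1, 2 and 3, against 7.25, 15.0 and 9.49 FPKM in sham 1, 2 and 3, so that sham 2 had 2.075 times the level of sham 1. The mean was 12.02 ± 2.09 FPKM in paced and 10.6 ± 4.01 FPKM in sham ventricles (SD, n = 3 each), with a log2 fold change of 0.21 (SE 0.23, 95% interval -0.31 to 0.73, limma adjusted p = 0.83). The interval includes both directions. Without Sham 1 the fold change was -0.0079 (adjusted p = 0.992) and without Sham 2 it was 0.47 (adjusted p = 0.718).

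Foxo4, of the same family and part of the wider control list, was the FoxO gene with the highest level. It stood at 26.2, 28.3 and 25.8 FPKM in pacing 1, 2 and 3, against 21.7, 23.1 and 24.0 FPKM in sham 1, 2 and 3. Every paced mouse lay above every sham mouse, with a log2 fold change of 0.22 (SE 0.08, limma adjusted p = 0.518) and an unadjusted p under 0.05. By mean level the order was Foxo4, Foxo3, Foxo1 and Foxo6, and no neighbours in this order overlapped over the 6 mice. Foxo6 was near the filter, at 1.06 ± 0.316 FPKM in paced and 1.23 ± 0.277 FPKM in sham ventricles (SD, n = 3 each).

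Gabarapl1, which encodes a GABARAP-like protein of the autophagosome membrane and is a known FoxO target in muscle, had the lowest p of the members. It stood at 92.7, 95.1 and 90.5 FPKM in pacing 1, 2 and 3, against 77.4, 75.2 and 82.3 FPKM in sham 1, 2 and 3. The lowest paced mouse lay above the highest sham mouse, and both groups were tight. The mean was 92.8 ± 2.32 FPKM in paced and 78.3 ± 3.66 FPKM in sham ventricles (SD, n = 3 each), a ratio of 1.185 and a log2 fold change of 0.24 (SE 0.07, 95% interval 0.07 to 0.41, limma adjusted p = 0.458). The unadjusted limma p was 0.0104, rank 271 of 11994 genes, where the two-sided exact permutation test gave 0.1. In the authors' deposited table its group levels were 92.1 for pacing and 77.8 for sham with a q-value of 0.546. Over 18 other ways of processing, the fold change stayed between 0.21 and 0.32 and the limma adjusted p between 0.247 and 1.0. Transcripts on the other strand of its locus (1700101I11Rik) stood at 1.21 to 2.38 FPKM.

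The other 2 members of this family had nearly equal means in both groups. Map1lc3a (LC3A) stood at 561.0, 645.7 and 514.2 FPKM in pacing 1, 2 and 3, against 540.9, 585.3 and 644.5 FPKM in sham 1, 2 and 3, with a log2 fold change of -0.04 (SE 0.11, 95% interval -0.30 to 0.21, limma adjusted p = 0.944). Map1lc3b (LC3B, the form used as a marker of autophagosomes, with near-identical gene copies that make its level uncertain) stood at 232.5, 208.8 and 198.5 FPKM in pacing 1, 2 and 3, against 202.1, 202.8 and 233.3 FPKM in sham 1, 2 and 3. Its log2 fold change was 0.0036 (SE 0.10, 95% interval -0.21 to 0.22, limma adjusted p = 0.994). For both genes the ranges of the groups overlapped almost fully.

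Set against 5 genes of its family, Gabarapl1 is a minor transcript whose share differed between the groups. Map1lc3a gave the most, and the order then ran through Gabarap, Map1lc3b and Gabarapl2 to Gabarapl1. The summed level of these 5 genes was 1339 ± 83.9 FPKM in paced and 1348 ± 126.0 FPKM in sham ventricles (SD, n = 3 each). Gabarapl1 made up 6.87%, 6.71% and 7.23% of that sum in pacing 1, 2 and 3, against 6.14%, 5.81% and 5.52% in sham 1, 2 and 3. This share does not depend on the scaling of the libraries, and it was looked at after the values were known. Gabarapl2 lay the other way, with each paced level below each sham level (log2 fold change -0.12, SE 0.08, limma adjusted p = 0.741), while Gabarap overlapped (0.02, SE 0.11, adjusted p = 0.973).

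Of the 2 cargo receptors, Sqstm1 had nearly equal means and an uneven sham group. It stood at 237.4, 241.8 and 221.1 FPKM in pacing 1, 2 and 3, against 191.3, 266.2 and 247.3 FPKM in sham 1, 2 and 3. The paced mice lay inside the range of the sham mice. The log2 fold change was 0.0037 (SE 0.12, 95% interval -0.28 to 0.29, limma adjusted p = 0.996), and without Sham 1 it was -0.14 (adjusted p = 0.508). Mrnip, listed in the table under an older name, overlaps exons of Sqstm1 on the other strand but stood at only 2.31 to 4.43 FPKM.

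Bnip3, a receptor for mitochondria that low oxygen induces, overlapped as well, at a level made uncertain by near-identical gene copies. It stood at 145.5, 114.2 and 112.1 FPKM in pacing 1, 2 and 3, against 95.6, 130.2 and 124.0 FPKM in sham 1, 2 and 3, and pacing 1 was the highest mouse and sham 1 the lowest. The log2 fold change was 0.09 (SE 0.14, 95% interval -0.24 to 0.41, limma adjusted p = 0.89). Its relative Bnip3l (NIX) averaged 37.9 ± 1.94 FPKM in paced and 37.7 ± 1.62 FPKM in sham ventricles (SD, n = 3 each). Bnip3l thus had a lower level and a smaller spread between mice.

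Ctsl, the cathepsin among the members, had a slightly higher mean in paced ventricles with overlapping groups. It stood at 122.98, 125.57 and 133.97 FPKM in pacing 1, 2 and 3, against 118.4, 111.8 and 126.7 FPKM in sham 1, 2 and 3. Sham 3 lay above 2 of the paced mice. The log2 fold change was 0.10 (SE 0.08, 95% interval -0.08 to 0.29, limma adjusted p = 0.769). Among 10 cathepsin genes, compared after their values were seen, Ctsd had the highest level, with 677.1 ± 47.4 FPKM in paced and 721.8 ± 101.8 FPKM in sham ventricles (SD, n = 3 each).

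**Figure D2:**
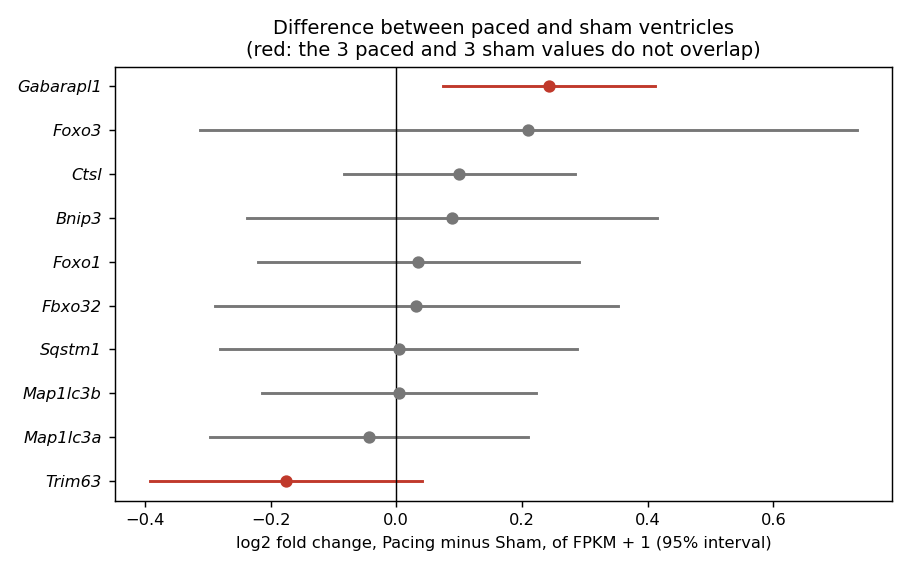
Log2 fold change of pacing minus sham for the 10 genes with the 95% interval of the limma fit (horizontal axis), in order of size. The interval of Gabarapl1, from 0.07 to 0.41 before adjustment for the number of genes, lies above 0, and the other 9 intervals include 0.

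The mice differed from each other more than the groups did for most members. The absolute fold change was smaller than the SD between mice of the same group for 7 of 10 members. The share of all genes for which this holds was not computed, so the count is not read as a trait of these members. Fbxo32, Foxo3, Sqstm1 and Bnip3 moved together: over the 6 mice the Pearson correlation of their log2 values was between 0.76 and 0.92 in all 6 pairs, as a description of 4 genes picked from 45 pairs. In all 4, sham 1 was the lowest mouse, and in 3 of them sham 2 was the highest, with pacing 1 the highest for Bnip3. Foxo1 did not follow these 4, with correlations of -0.78 with Bnip3, -0.56 with Fbxo32, -0.44 with Sqstm1 and only -0.22 with Foxo3. Its most negative value over all members was -0.81, with Map1lc3b. Among the other members, the closest partner was Gabarapl1 for Ctsl and Ctsl for Gabarapl1 (r = 0.72), Bnip3 for Map1lc3b (0.64), Sqstm1 for Map1lc3a (0.585), Fbxo32 for Trim63 (0.325) and Gabarapl1 for Foxo1 (0.083). Trim63 and Gabarapl1 lay opposite to each other (r = -0.78), as 2 genes that separate the groups in opposite directions do.

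**Figure D3:**
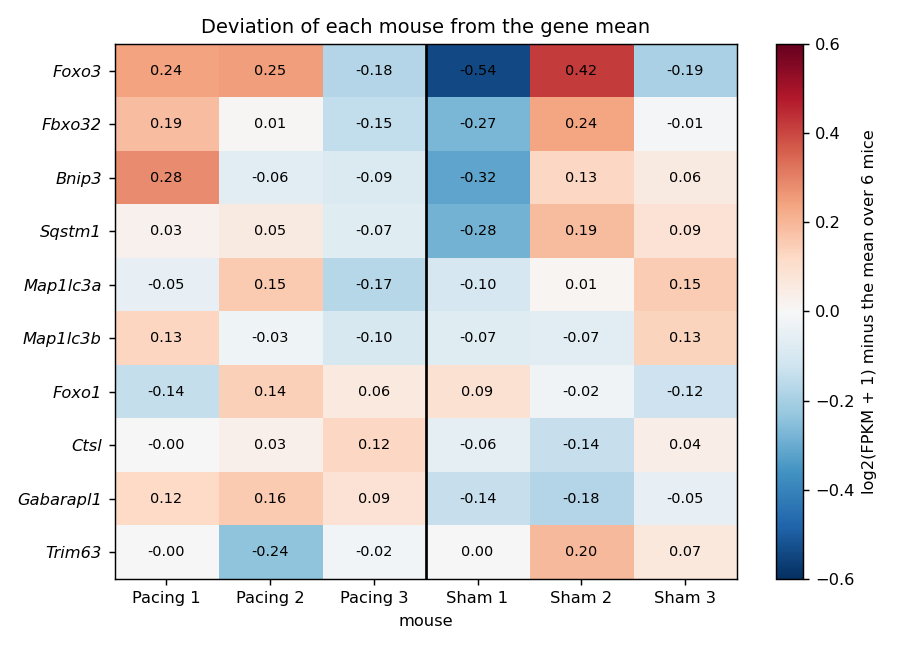
Deviation of each mouse (columns, Pacing left of the line and Sham right of it) from the mean of each gene over 6 mice, on the log2(FPKM + 1) scale. Sham 1 is blue in Foxo3 (-0.54), Bnip3 (-0.32), Sqstm1 (-0.28) and Fbxo32 (-0.27), and the paced mice stand apart from the sham mice in Gabarapl1 and, by little, in Trim63.

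By the same measure, the gene of all 8180 with a mean of at least 5 FPKM that lay nearest to Fbxo32 was Sptb, the beta spectrin of red cells and muscle (r = 0.99 over 6 mice), and the nearest to Foxo3 was Ctage5 (0.99). Nearest to Sqstm1 was Fbxw4 (0.996). Trim63 was followed most closely by Tnfaip8 (0.995), Gabarapl1 by the annexin Anxa3 (0.99) and Ctsl by Nrbp2 (0.98). Foxo1 was followed by Klhl22 (0.99), Map1lc3a by Tssc1 (0.99) and Map1lc3b by the mitochondrial ribosomal gene Mrpl38 (0.999). With 6 mice such values are common, since 31 to 139 genes per member had a correlation above 0.9.

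The libraries also differed in tissue makeup, and no relation of a member to the atrial level passed adjustment. The ventricular markers Myh6, Myl2, Myl3, Tnni3, Tnnt2, Actc1, Pln and Ryr2 were all present, with a summed level of 63700 to 65730 FPKM in paced and 66870 to 87170 FPKM in sham ventricles. The 5 atrial markers summed to 5714 to 14610 FPKM in paced mice, against 12630, 424.2 and 5280 FPKM in sham 1, 2 and 3. Sham 2, lowest in atrial markers, was the highest mouse in Fbxo32, Trim63, Foxo3 and Sqstm1. Over the 6 mice the mean log2 level of Myl7, Myl4 and Sln had a Pearson r of -0.81 with Trim63 (exact permutation p = 0.0806, adjusted p = 0.32 over 10 members) and a Spearman rho of -0.83 (exact permutation p = 0.0583, adjusted p = 0.438). Without pacing 2 and sham 2, the mice farthest from the median, r was -0.72. No member passed in this family of tests. For Fbxo32 r was -0.69 (exact permutation p = 0.0931), and -0.80 without these 2 mice. Ctsl and Gabarapl1 had positive values, with r of 0.73 and 0.64 (exact permutation p = 0.128 and 0.113). Without the same 2 mice their r was 0.04 and -0.21. With the atrial level as a covariate the fold change of Trim63 was -0.092 and that of Foxo3 was 0.54 (limma adjusted p = 0.651), with an unadjusted p under 0.05.

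The 6 fat markers summed to 177.2 to 314.2 FPKM in paced mice, against 166.5, 14.1 and 8.91 FPKM in sham 1, 2 and 3, and the 7 lung markers to 2.44, 313.2 and 1718 FPKM in pacing 1, 2 and 3, against at most 4.96 FPKM in sham mice. The lung markers Sftpd, Sftpa1 and Scgb3a2 stood at the lowest listed value in all 3 sham mice. The 8 macrophage markers summed to 267.2 to 458.4 FPKM in paced and 215.9 to 316.6 FPKM in sham ventricles, and the 9 skeletal muscle markers to 1533 to 2027 FPKM in paced and 1804 to 2449 FPKM in sham ventricles, nearly all from Ckm, which heart expresses too. The part of these differences in the levels of the members was not tested, beyond the atrial and fat covariates. With the fat level as a covariate, Gabarapl1 had a fold change of 0.26 and Foxo3 one of 0.59 (limma adjusted p = 1.0 for both). Without Pacing 2 and Pacing 3, the mice with lung transcripts, Gabarapl1 had a fold change of 0.24 (limma adjusted p = 1.0), in a fit that takes the lone paced mouse to vary like the sham mice. In these 2 fits its unadjusted p was above 0.05. In bulk tissue, fewer cells of a type and less RNA per cell cannot be told apart.

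The wider pathways held no gene past the adjusted threshold either. In 12 lists with 226 tested genes, 99 had a positive and 127 a negative fold change, 4 were higher and 3 lower at an unadjusted p under 0.05, and 0 passed the adjusted threshold (lowest limma adjusted p = 0.492). The 7 genes at the unadjusted threshold are 3.1% of the 226, below the 8.85% of all genes. With equal sums of FPKM, a scaling in which 67.8% of all genes were positive, 161 were positive. Centred on medians 77 were positive, and with quantile normalization 105. Each paced mouse was above each sham mouse in 11 of the 226 genes and below in 15, against 6.24% and 6.97% of all genes. Neither count exceeds the share of all genes.

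On the ubiquitin side, most genes had slightly negative fold changes that depend on the scaling. The 20S proteasome core had 2 positive and 12 negative genes (median log2 fold change -0.04) and the 19S regulator 3 and 15 (-0.05). Psmb2, a core subunit, averaged 146.3 ± 9.83 FPKM in paced and 159.8 ± 9.31 FPKM in sham ventricles, and Psmd6, of the regulator, 67.8 ± 3.09 and 75.8 ± 7.32 FPKM (SD, n = 3 each; limma adjusted p = 0.713 and 0.681). Core gene Psma4 and regulator gene Psmd1 were next, with log2 fold changes of -0.10 and -0.12. With equal sums of FPKM in all mice the split turned to 11 positive and 3 negative in the core and 11 and 7 in the regulator. Centred on medians, the core had 1 positive and 13 negative genes and the regulator 1 and 17. With quantile normalization the core had 6 and 8 and the regulator 5 and 13. The share of positive genes among all genes was 67.8%, 40.7% and 42.4% in these 3 scalings. No direction is given to the proteasome.

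Other ligases of muscle had 8 positive and 17 negative genes (median -0.03), which turned to 17 and 8 with equal sums. Fbxw7 and Fbxo21, F-box proteins like atrogin-1, were lowest in p, with log2 fold changes of -0.18 and -0.16 (limma adjusted p = 0.655 and 0.663). Each paced mouse was below each sham mouse in both. Ubiquitin genes and their E1 and E2 enzymes had 7 positive and 14 negative (median -0.05; 14 and 7 with equal sums). Among them the activating enzyme gene Uba6 had a log2 fold change of -0.24 (limma adjusted p = 0.645). The immunoproteasome and activator list had 2 positive and 5 negative genes (median -0.03; 4 and 3 with equal sums). Its activator genes Psme4 and Psme1 had an unadjusted p under 0.05, at -0.21 (limma adjusted p = 0.554) and -0.22 (limma adjusted p = 0.563). Calpains and their inhibitor calpastatin had 3 positive and 4 negative (median -0.05; 5 and 2 with equal sums), with Capn3 below the filter, and Capn10 and Cast (calpastatin) had log2 fold changes of 0.24 and -0.10.

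Among genes that start autophagy, 13 were positive and 9 negative (median 0.008; 16 and 6 with equal sums). Tmem41b, needed for the growth of the membrane, was lowest in p (log2 fold change -0.17, limma adjusted p = 0.631), followed by Wdr45 (0.13). The enzymes and partners of LC3 conjugation had 7 positive and 6 negative (median 0.02; 10 and 3 with equal sums), with Atg10, an E2-like enzyme, at 0.13 and the protease gene Atg4a at -0.17 (limma adjusted p = 0.707 and 0.741). Other receptors had 9 and 9 (median 0.001; 14 and 4 with equal sums). Among these Nbr1, a receptor that works with p62, averaged 36.04 ± 1.68 FPKM in paced and 42.1 ± 4.82 FPKM in sham ventricles (SD, n = 3 each; log2 fold change -0.21, limma adjusted p = 0.578), and each paced mouse was below each sham mouse. Tex264, a receptor for the endoplasmic reticulum, lay the other way (0.14, limma adjusted p = 0.626). Fusion genes had 7 and 8 (median -0.008; 9 and 6 with equal sums), with Vamp8 at 0.15 and Epg5 at -0.16.

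In the lysosomal list 3 of 34 genes were higher at an unadjusted p under 0.05, namely Hexa, Ctsk and Ctss, and 0 were lower, a share near the 8.85% of all genes. It had 22 positive and 12 negative genes (median 0.04; 29 and 5 with equal sums). Hexa, a subunit of hexosaminidase, averaged 58.3 ± 5.25 FPKM in paced and 48.4 ± 3.09 FPKM in sham ventricles (SD, n = 3 each; log2 fold change 0.26, SE 0.09, limma adjusted p = 0.492). Ctsk, a collagen-cleaving cathepsin, averaged 9.23 ± 1.09 and 6.35 ± 1.73 FPKM (0.50, SE 0.18, limma adjusted p = 0.492). Ctss, a cathepsin of antigen-presenting cells that was named after its values were seen, stood at 38.1, 22.1 and 29.8 FPKM in pacing 1, 2 and 3, against 25.2, 16.5 and 19.8 FPKM in sham 1, 2 and 3 (0.52, SE 0.20, limma adjusted p = 0.54). Its highest mouse, pacing 1, was also the highest in the macrophage markers (458.4 FPKM), and its lowest, sham 2, was the lowest (215.9 FPKM). Pacing 3, second in Ctss, had 267.2 FPKM of these markers, below pacing 2 (298.9 FPKM) and sham 1 (316.6 FPKM). A relation of Ctss to these markers was not tested.

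The control list of insulin, Akt, mTOR and AMPK genes had 16 positive and 16 negative genes (median 0.007), against 21 and 11 with equal sums. Beside Foxo4, Irs1, an adaptor of the insulin receptor, had an unadjusted p under 0.05. It stood at 3.30, 2.71 and 2.91 FPKM in pacing 1, 2 and 3, against 3.82, 3.49 and 3.99 FPKM in sham 1, 2 and 3. Its log2 fold change was -0.26 (SE 0.11), with a limma adjusted p = 0.553. Each paced mouse was below each sham mouse.

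**Figure D4:**
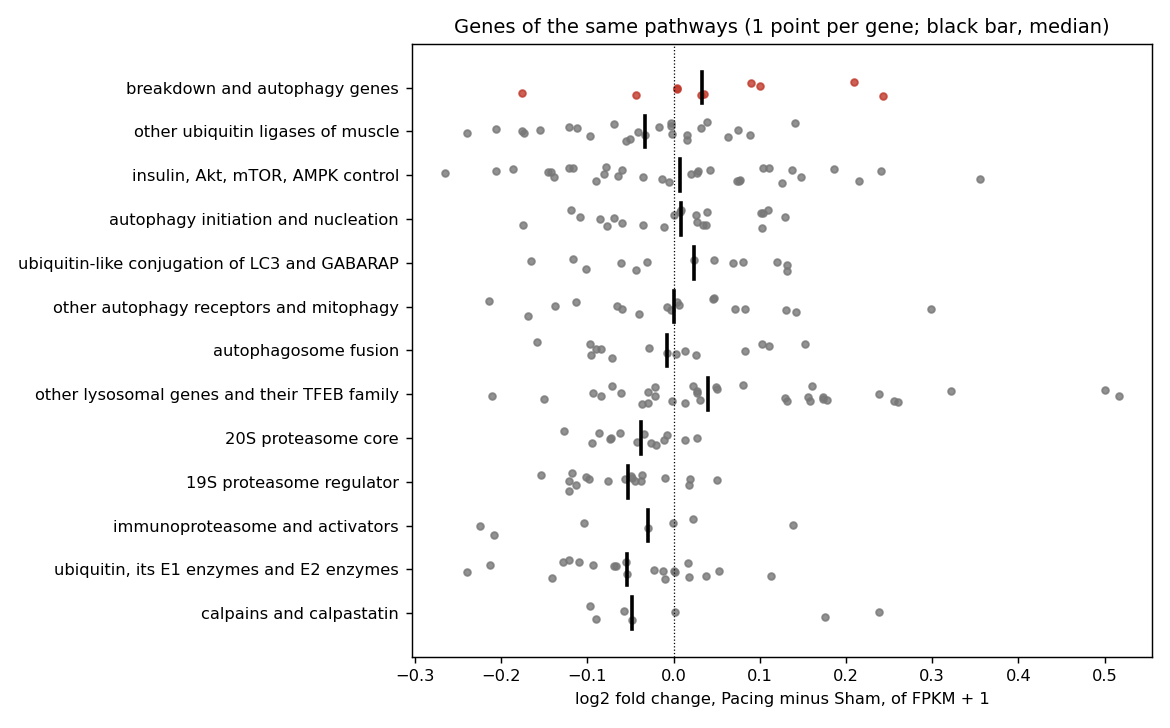
Log2 fold change of pacing minus sham (horizontal axis) for each gene of the 10 (red) and of 12 pathway lists (grey), with the median of each list as a black bar. The medians lie between -0.05 and 0.04, and no single gene in the plot passed the adjusted threshold.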

How the data were processed

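Ventricles of 6 mice gave stranded polyA libraries, read from both ends over 151 bases, per the labels' protocols. According to the submitters' processing notes the tools included TopHat2 2.1.0 and Bowtie2 2.2.6 as well as Cuffdiff, Cufflinks and FastQC 1.0.0, and the build was mm10. The annotation, the strand setting and any filter were not given in the sources used here. As values the authors deposited 1 FPKM value per gene and mouse, with 0.01 as the lowest, and, in a second table, FPKM per group with a q-value and a call from their own test. Their fold column was not used, since some of its cells are spreadsheet errors.

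FPKM is not a count, so a limma model (version 3.58.1, R 4.3.3) with a single term for group and a mean-variance trend in eBayes was fitted to log2(FPKM + 1) of the 11994 genes with a mean of at least 1 FPKM, with two-sided p-values adjusted by Benjamini-Hochberg. This scale understates the change of low genes. A single row with a failed estimate was left out. The fit was tested on simulated data with log2 changes of 1 and 2, of which 84% and 97.5% were recovered, with a mean of 9.1 false calls. Changes as small as those of the members were not simulated. Steps of the lowest values of 647 genes with 1 exon gave an effective depth of 7744000 to 8908000 fragments in paced and 6276000 to 7888000 in sham libraries, and 100% of the values used were whole within 0.05 of a fragment.

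No 2 libraries shared more than 0.014% of their values, and the mice were taken as separate animals from the series design. Table starts were raised by 1, after which those of Fbxo32, Trim63 and Bnip3 equal the GENCODE starts. GENCODE M21 gave overlaps: exons of 7 members overlap another gene, and the table lists 3 of these partners. BLAST 2.17.0 matched other annotated genes at 95% identity or more over 200 bases. They numbered 5 for Bnip3, 4 for Map1lc3b, 2 for Ctsl and 1 each for Foxo1, Gabarapl1 and Sqstm1. Those of Ctsl, Foxo1, Gabarapl1 and Sqstm1 all overlap the member at its own locus, while Bnip3 and Map1lc3b have copies elsewhere. Fragments may be split between such genes, so these 6 levels are uncertain. Exons of Fbxo32 overlap another gene too, Gm15943.

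The members and the lists were chosen with earlier results of these data known. Named were all members, the 2 genes with the lowest p of each of 12 pathway lists, the nearest member and gene to each member by Pearson r, and genes said in the text to be named after their values were seen. A pair of genes that this rule names is not reported here. Alternatives are given at the end.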

Additional observations from a re-analysis of the deposited data

How the results depend on the processing

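Under 18 alternatives (pseudocounts of 0.1 and 0.5, no filter, a mean of at least 5 FPKM, 3 scalings, eBayes without a trend, a replicate block, each mouse left out, atrial and fat covariates, and both mice with lung transcripts left out) 0 members passed. Gabarapl1, Ctsl and Trim63 kept their direction in all 18. The other 7 turned in some: Foxo1 was -0.0085 with the atrial level, -0.042 with the fat level and -0.13 without Pacing 2 and Pacing 3; Map1lc3a was 0.034 with equal sums, 0.015 with quantile normalization and 0.086 with the fat level; Map1lc3b was -0.021 centred on medians and -0.0029 with the atrial level; Sqstm1 was -0.021 centred on medians. Leaving out 1 mouse gave ranges of -0.097 to 0.16 for Fbxo32, -0.026 to 0.12 for Foxo1, -0.0079 to 0.47 for Foxo3, -0.13 to 0.032 for Map1lc3a, -0.06 to 0.072 for Map1lc3b, -0.14 to 0.10 for Sqstm1 and -0.046 to 0.17 for Bnip3. The cause was not tested.

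The count of members with a positive fold change ranged from 3 (without Sham 1) to 9 when 1 mouse was left out, and was 4 without Pacing 1. Members with an unadjusted p under 0.05 numbered 2 with equal sums and with the atrial level, 0 with the fat level and without Pacing 2 and Pacing 3, and 1 to 2 with 1 mouse left out. The median over members was 0.19 with the fat level. Pathway genes with a positive fold change numbered 161 with equal sums, a scaling that moves the median of all genes to 0.06 and the share of positive genes to 67.8%. Of all genes, 7 were higher with the replicate block; with 1 mouse left out, 0 to 106 were higher (106 without Sham 1, 7 without Pacing 1) and 0 to 1 lower. No member was among them. In Gabarapl1 the replicate block left the fold change at 0.24 (limma adjusted p = 0.64). No pairing of mice by equal replicate numbers was seen (correlations of -0.13, -0.02 and -0.02 for 1, 2 and 3). With 3 mice per group this cannot exclude a shared litter or day. Counting error in the lowest mouse was 6.14% for Foxo1, the member with the lowest level, if its transcript has the GENCODE length, and larger if it is shorter.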
